A study of Mus musculus with 6 samples.

Results

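The genes described here are the growth arrest genes Gadd45a, Gadd45b and Gadd45g, the antiproliferative genes Btg1 and Btg2, and Cdkn1a, Mdm2, Bax, Ccng1 and Trp53, which stand for the p53 response. These 10 genes were chosen with earlier results of these data known. Members were all probe sets that the platform annotation maps to one of them, a rule that itself used no measured value. It found 10 probe sets of 8 genes among the 12488 on the array. Gadd45b and Cdkn1a had 2 probe sets each, called brighter and dimmer here by their mean log2 value. Bax and Trp53 were not analysed here. RNA of the pancreas was hybridised to 6 arrays, each from a single mouse. The 3 control arrays came from CFTR+/+ mice and the 3 CF arrays from CFTR-/- mice, which lack the anion channel whose loss causes cystic fibrosis. Both groups were gastrin+/- males of 56 to 58 days on a 95% black6 and 5% 129Sv background that had received Peptamen, a peptide diet, since day 10 to keep the gut clear. The controls therefore also carried a single intact gastrin allele. The sources used here do not give which part of Cftr the null allele removes, and the arrays are named by their labels.

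The p53 protein is a transcription factor that accumulates after DNA damage and other stress and switches on genes that halt the cell cycle or start apoptosis. Cdkn1a encodes the p21 inhibitor of cyclin-dependent kinases, Mdm2 the ubiquitin ligase that removes p53 again, Ccng1 the cyclin G1, and Bax a protein that permeabilises mitochondria. The Gadd45 proteins bind PCNA, p21 and stress kinase cascades, and their genes answer to several stress and cytokine signals besides p53. Btg1 and Btg2 slow proliferation and recruit the CCR4-NOT complex that shortens mRNA tails, and Btg2 is both a direct p53 target and an early response gene. In the pancreas Cdkn1a and Btg2 are known as genes that injured acinar cells switch on.

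The bases upstream of the RefSeq start (build GRCm38.p6) are printed for the members on which the results turn, to show which promoter elements each window holds. Each line gives the 250 bases before the start, read 5′ to 3′ on the strand of the gene. Capitals mark matches, on either strand, to the p53 half-site, the TATA box (TATAAA), the CCAAT box (CCAAT), the GC box (GGGCGG) and the cAMP response element (TGACGTCA).
Gadd45g, chr13:51846425-51846674, plus strand: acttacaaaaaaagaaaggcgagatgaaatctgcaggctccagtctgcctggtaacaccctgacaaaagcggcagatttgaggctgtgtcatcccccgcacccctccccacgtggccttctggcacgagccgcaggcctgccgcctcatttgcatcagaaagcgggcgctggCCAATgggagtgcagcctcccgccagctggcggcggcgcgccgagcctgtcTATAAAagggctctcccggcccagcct
Gadd45b, chr10:80929841-80930090, plus strand: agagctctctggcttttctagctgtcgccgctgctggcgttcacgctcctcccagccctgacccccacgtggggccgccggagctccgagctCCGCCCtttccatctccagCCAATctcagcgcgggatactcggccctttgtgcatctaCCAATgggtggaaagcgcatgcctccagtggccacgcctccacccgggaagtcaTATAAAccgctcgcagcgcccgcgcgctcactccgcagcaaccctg
Btg2, chr1:134079156-134079405, minus strand: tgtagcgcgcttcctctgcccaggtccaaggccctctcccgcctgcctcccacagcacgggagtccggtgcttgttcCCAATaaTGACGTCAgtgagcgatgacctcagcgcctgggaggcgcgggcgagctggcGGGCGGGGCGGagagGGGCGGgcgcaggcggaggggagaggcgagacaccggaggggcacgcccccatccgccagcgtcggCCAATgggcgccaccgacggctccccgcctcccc
Cdkn1a, upstream start, chr17:29090729-29090978, plus strand: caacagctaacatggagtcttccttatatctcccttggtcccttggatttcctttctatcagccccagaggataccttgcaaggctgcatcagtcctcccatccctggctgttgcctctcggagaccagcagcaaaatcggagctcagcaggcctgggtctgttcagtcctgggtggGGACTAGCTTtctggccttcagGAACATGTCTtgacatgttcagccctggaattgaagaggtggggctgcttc
Mdm2, chr10:117710759-117711008, minus strand: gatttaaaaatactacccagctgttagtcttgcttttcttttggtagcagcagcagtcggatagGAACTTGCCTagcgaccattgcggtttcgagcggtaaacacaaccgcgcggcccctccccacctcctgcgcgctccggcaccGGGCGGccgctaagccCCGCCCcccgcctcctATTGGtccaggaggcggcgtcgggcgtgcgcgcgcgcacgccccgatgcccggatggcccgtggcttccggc

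All 10 genes of the rule matched the RefSeq table, which holds 11 windows for them because Cdkn1a has 2 starts. The p53 half-site matched in 6 of these 11 windows and in 7.13% of all 32851 windows of the same length. The measured genes with a match were Gadd45a, Ccng1, Mdm2 and the upstream start of Cdkn1a, where it matched at 2 places, 73 and 51 bases before the start. The remaining matches were in Bax and Trp53, and Gadd45b, Gadd45g, Btg1 and Btg2 had none. The TATA box matched in 4 of the 11 windows (12.4% of all windows), among them that of Gadd45g 27 bases and that of Gadd45b 46 bases before the start. The CCAAT box matched in 8 (33.8%) and the GC box in 7 (32.7%). In the Btg2 window, GC box matches overlap by a base. Btg2 was the single member with the cAMP response element (1.55% of all windows), 166 bases before its start. The AP-1 site (TGANTCA, 6.75% of all windows) and the STAT site (TTCNNNGAA, 7.02%) matched in 0 of the 11. A match describes letters and is no evidence of binding, and its absence applies to these windows alone.

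Depth does not apply to arrays, and the number of arrays limits the precision. Array medians lay between 207.8 and 234.4, and correlations between arrays of one group lay between 0.865 and 0.920 across probe sets, which are not independent. The tissue was that of the labels by its markers: all 10 acinar markers on the array were bright enough to test, with summed intensities of 665428 to 910515 in controls and 630984 to 707426 in CF. Cftr measured 318.0, 223.0 and 338.5 in controls and 466.9, 313.8 and 364.2 in CF on the only testable of its 3 probe sets, which is no check of the genotype, since its place relative to the disrupted part is unknown. In whole tissue, a smaller share of a cell type and less RNA per cell cannot be told apart.

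Among the 8 member probe sets bright enough to test, that of Gadd45g was furthest apart between the groups, at 2.40 times the control level in the CF pancreas, and 1 of the 2 Cdkn1a probe sets followed at 2.03 times. The dimmer Gadd45b probe set, which was too dim to test, had a larger log2 difference of 2.31 that came from 2 of the 3 CF arrays. The remaining tested probe sets, of Gadd45b, Btg1, Btg2, Cdkn1a, Mdm2 and Ccng1, differed by 0.37 or less on the log2 scale. None of the 8 passed an adjusted p of 0.05 in limma over all 7739 tested probe sets, a threshold that 5 probe sets, 0.0646%, passed. At an unadjusted p under 0.05 stood 2 members, the Gadd45g probe set and the dimmer one of Cdkn1a, against 571 or 7.38% of all probe sets. The same 2 had all CF values above all control values, as did 570 probe sets or 7.37% of all. Without regard to direction the groups did not overlap in 13.0% of probe sets, and 4.26% were higher in CF at an unadjusted p under 0.05. Of the 8, 5 were higher in CF (50.1% of all probe sets were) and 3 lower, and the median log2 difference was 0.24 (0.00 over all tested probe sets). That median was 0.41 without CF replicate 3 and 0.14 without CF replicate 2. With 8 probe sets of 7 genes these shares are coarse. The genes were chosen with earlier results of these data known, so the comparison with all probe sets is a description.

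**Figure D1:**
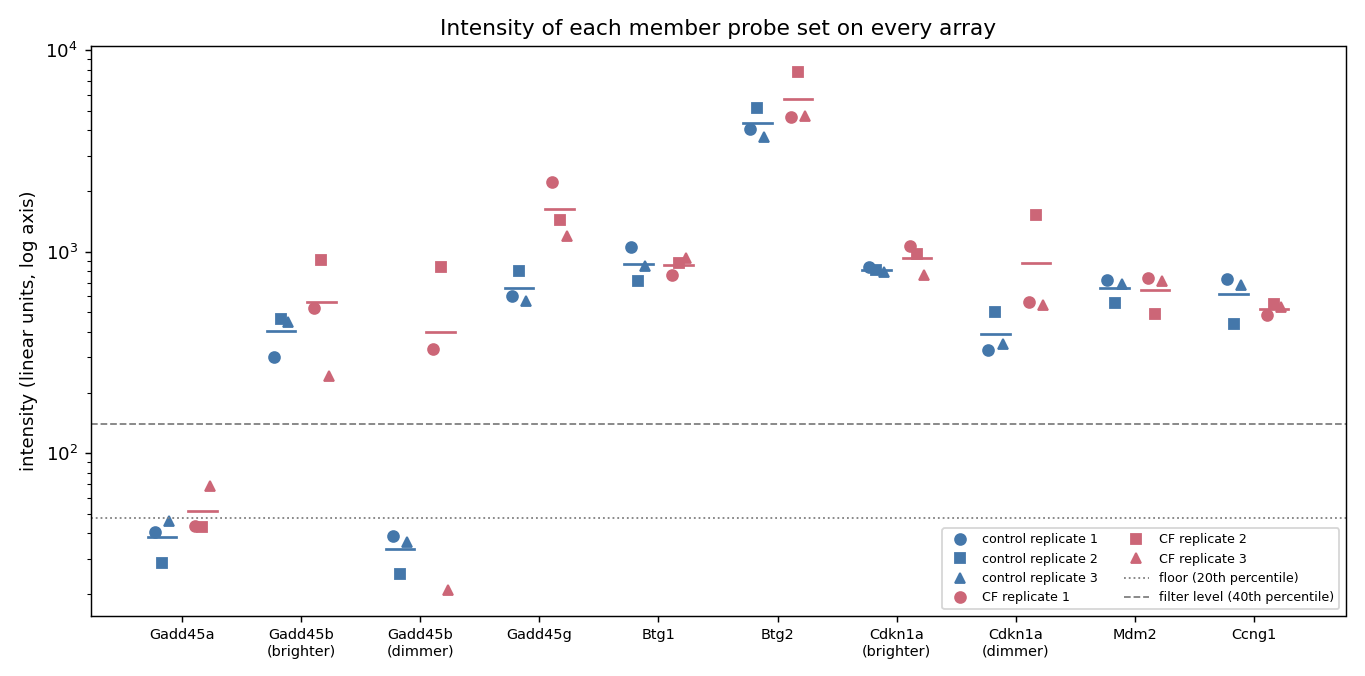
Intensity of the 10 member probe sets (x axis) on each array (y axis, log scale). Symbols give the replicate number, bars the group mean, and the lines at 47.6 and 140.2 the floor and the filter level. The groups are apart for Gadd45g and for the dimmer Cdkn1a probe set. Gadd45a and all control values of the dimmer Gadd45b probe set lie under the floor or the filter level.

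Gadd45g, on chromosome 13 at 51846675 to 51848475, encodes the Gadd45 protein best known from cytokine signalling. Replicates 1, 2 and 3 are given in this order throughout. The control arrays read 605.1, 806.5 and 570.8 (intensity), and the CF arrays 2218, 1444 and 1202. Every CF mouse thus lay above every control, and CF replicate 1 was the highest. The means were 661 ± 127 and 1621 ± 531 (SD, n = 3 per group), and the log2 difference was 1.26 ± 0.26 (SE, 95% interval 0.67 to 1.86, limma adjusted p = 0.19). Its p ranked 42 among the 7739. Since the groups did not overlap, CF had to exceed the control of the same replicate number in 3 of 3 pairs. The pair differences were 1.87, 0.84 and 1.07 on the log2 scale. Fitting the replicate number as a block gave an SE of 0.23 and a limma adjusted p of 0.19. Leaving out single arrays gave 1.01 to 1.45, and over all alternatives the limma adjusted p ran from 0.083 with array weights to 0.58 without CF replicate 2.

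The summed intensities of some cell type markers also lay apart between the groups, and their part in the difference of Gadd45g was not tested. A sum weighs its brightest genes most, so a gap can rest on a single gene and does not measure a cell type's share. Of the duct markers, 8 of 11 were tested and 6 of these were higher in CF, with summed intensities of 7636 to 9259 in controls and 9793 to 11977 in CF. Of the 6, 4 were higher without overlap. The brightest duct marker, Krt18, gave 3325.8, 3362.6 and 3698.7 in controls and 6068.5, 4477.4 and 5486.7 in CF. The keratins Krt8 and Krt19, counted as higher, differed by 0.04 each on the log2 scale, with overlap. Cldn3 and Car2 were lower, by -0.18 and -0.09, although a further Cldn3 probe set gave 0.33. The duct keratin Krt7 was too dim to test. Of the endothelial markers, 6 of 8 were tested and 5 were lower, with sums of 2027 to 2531 in controls and 1452 to 1872 in CF. Eng alone was without overlap, with 1243.4, 991.2 and 996.2 in controls and 423.5, 689.8 and 866.4 in CF. Tie1 and Vwf were too dim. Of the smooth muscle markers, 4 of 6 were tested, 2 higher and 2 lower, with sums of 1171.1 to 2158 and 908.1 to 1169.1 and with Myh11 and Cnn1 too dim. Here Acta2 alone was without overlap, with 1006.8, 330.4 and 589.4 in controls and 73.1, 98.7 and 76.7 in CF. Without Krt18, Eng or Acta2, the sums of their lists overlapped between the groups, so each of these gaps depended on a single gene. The sums of the other lists overlapped between the groups, but most were lower in CF within every pair of the same replicate number. Of the adipocyte markers, 5 of 9 were tested and all 5 were lower, with sums of 5421 to 13694 in controls and 4306 to 5706 in CF. Of the lymphocyte markers, 8 of 12 were tested and 7 were lower (6325 to 11710 and 3662 to 7573). Of the macrophage and granulocyte markers, 6 of 10 were tested and 5 were lower (4273 to 6274 and 3513 to 4317), and of the matrix and stellate markers 12 of 12 were tested and 11 were lower (17619 to 26352 and 14572 to 19610). Those 4 sums and the acinar, endothelial and smooth muscle sums were lower in CF in 3 of 3 pairs, and the duct sum was higher in 3 of 3. For the endothelial, smooth muscle and duct sums this follows from the groups lying apart. The islet sum was higher in 2 of 3. Of the markers in these lists, 0 passed the adjusted threshold in limma, and their part in the other differences between the groups was not tested either.

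Gadd45b, on chromosome 10 at 80930091 to 80932204, encodes a Gadd45 protein known as a rapid target of NF-κB. Its brighter probe set gave 300.0, 465.0 and 448.1 in controls and 527.5, 913.3 and 241.4 in CF. CF replicate 3 was the lowest and CF replicate 2 the highest of the 6 arrays, so the groups overlapped. The log2 difference was 0.30 ± 0.45 (95% interval -0.73 to 1.33, limma adjusted p = 0.92), and it turned to -0.15 without CF replicate 2. Leaving out CF replicate 3 gave 0.81 and leaving out control replicate 1 gave 0.097. The dimmer probe set, which the array's naming marks as one of a family of similar sequences, gave 39.0, 25.3 and 36.2 in controls and 329.5, 841.7 and 21.0 in CF. Controls and CF replicate 3 lay under the floor of 47.6, whereas CF replicates 1 and 2 lay well above it, so the CF group spanned the whole range. How far it reads related transcripts was not tested. With 2 of 6 arrays above the filter level it was not tested in the fit, and an exact permutation test of its floored log2 values gave p = 0.4 (two-sided, where 3 against 3 arrays allow no p under 0.1). The order of the CF arrays, replicate 2, then 1, then 3, was the same on both Gadd45b probe sets.

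Gadd45a, on chromosome 6 at 67035096 to 67037407, is the member of its family with a p53 site in an intron. Its probe set gave 40.6, 28.4 and 46.2 in controls and 43.5, 43.3 and 69.0 in CF. Of these, only CF replicate 3 exceeded the floor, so no level and no fold can be given, and a difference was not detectable at this signal. The gap between the Gadd45g and brighter Gadd45b differences was 0.96 on the log2 scale (SD between arrays 0.34 in controls and 0.89 in CF, exact permutation p = 0.3, adjusted over the 4 such gaps compared 0.4). Within the same replicate number it was 1.06, -0.13 and 1.97. The permutation of 3 against 3 arrays leaves the pairing out and allows no p under 0.1, and flipping the signs of 3 pairs allows none under 0.25, so neither could pass 0.05 for any of the 4 gaps.

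Btg2, on chromosome 1 at 134074865 to 134079155, measured 4077, 5188 and 3728 in controls and 4645, 7807 and 4721 in CF. Replicate 2 was the highest array in both groups, and the groups overlapped because control replicate 2 exceeded CF replicates 1 and 3. The log2 difference was 0.37 ± 0.23 (95% interval -0.15 to 0.90, limma adjusted p = 0.78), and 0.13 without CF replicate 2. Within pairs of the same number CF was higher in 3 of 3, by 0.19, 0.59 and 0.34. The share of all probe sets higher in 3 of 3 pairs was not counted. With the replicate number as a block the SE fell to 0.13, and the limma adjusted p of 0.37 did not pass either. Of the 2 ratios that measure RNA quality, the β-actin 3′/5′ ratio was also highest in replicate 2 of both groups, at 2.16 in control and 2.14 in CF against 1.74 to 1.94 on the other arrays. The Gapdh 3′/5′ ratio was high in control replicate 2 alone, at 1.45, and was 0.756 in CF replicate 2, between 0.723 and 0.874 in CF replicates 1 and 3. The part of either in the level of Btg2 was not tested.

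Btg1, on chromosome 10 at 96617001 to 96622813, measured 1054, 719.0 and 845.0 in controls and 763.2, 878.6 and 932.7 in CF. The CF values lay within the range of the controls, and the log2 difference was -0.01 ± 0.21 (95% interval -0.49 to 0.46, limma adjusted p = 0.995). This interval covers folds from 0.714 to 1.38. The difference between Btg2 and Btg1 in their CF to control change was 0.38 (SD between arrays 0.47 in controls and 0.41 in CF, exact permutation p = 0.4), and 0.65, 0.30 and 0.20 within pairs, positive in 3 of 3. Btg2 belongs with the early response genes, of which 13 of 15 listed genes were tested, 5 higher and 8 lower in CF with a median log2 difference of -0.20. Their summed intensities overlapped, at 9392 to 11448 in controls and 8887 to 10126 in CF, and were lower in CF in 3 of 3 pairs. These sums lean on Jund, the brightest gene of the list. It measured 4920, 6283 and 5479 in controls and 3643, 2873 and 4463 in CF. Without Jund the sums were not lower in CF in every pair, so the direction of the full sum cannot be read as that of the class.

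**Figure D2:**
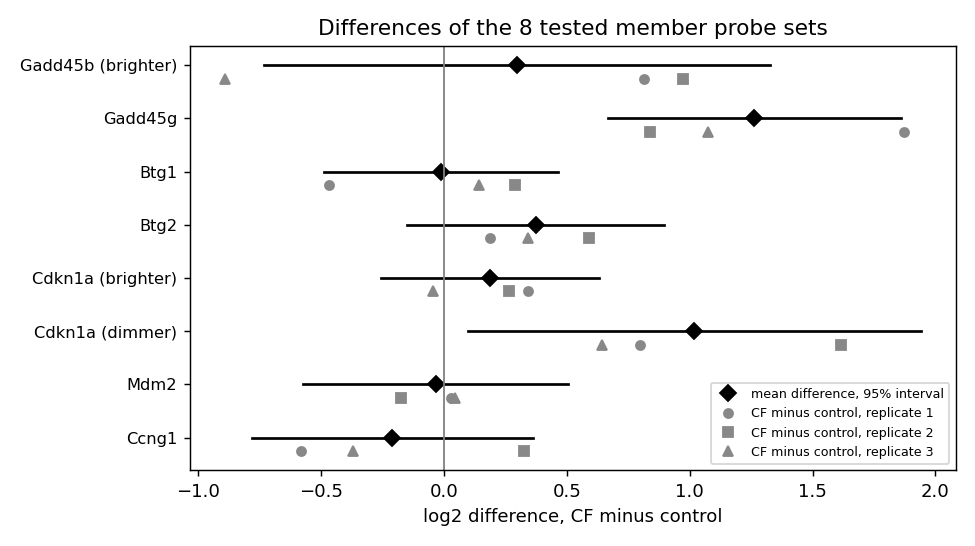
Log2 difference, CF minus control (x axis), of the 8 tested member probe sets. Diamonds and bars give the limma estimate and its 95% interval, grey symbols the difference within each replicate number. The intervals of Gadd45g (0.67 to 1.86) and of the dimmer Cdkn1a probe set (0.10 to 1.94) lie above 0, and the other 6 include 0.

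Cdkn1a, on chromosome 17 at 29090979 to 29100722, gave different pictures on its 2 probe sets. On the dimmer one it measured 324.5, 499.6 and 348.0 in controls and 564.9, 1530 and 542.8 in CF. Every control lay below every CF array, but CF replicate 2 lay far above the other two. The log2 difference was 1.02 ± 0.41 (95% interval 0.10 to 1.94, limma adjusted p = 0.65), and it was 0.53 without CF replicate 2. Within pairs it was 0.80, 1.61 and 0.64, and the block brought the limma adjusted p to 0.26. On the brighter one Cdkn1a measured 837.8, 814.6 and 788.7 in controls and 1063, 979.7 and 764.5 in CF. CF replicate 3 was the lowest array there and the groups overlapped, with a log2 difference of 0.19 ± 0.20 (95% interval -0.26 to 0.63, limma adjusted p = 0.88). That difference was 0.33 without CF replicate 3 and 0.089 without CF replicate 1. The probe sets differed in their change by 0.83 (SD between arrays 0.34 in controls and 0.80 in CF), and by 0.46, 1.35 and 0.69 within pairs, positive in 3 of 3 (exact permutation p = 0.2, adjusted 0.4). The place of each in the transcript was not used here.

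**Figure D3:**
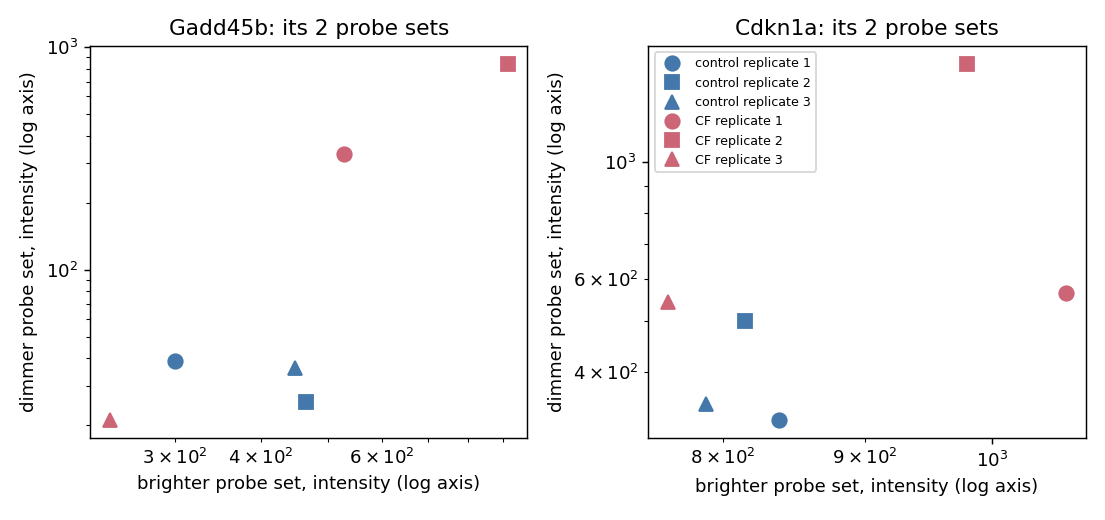
The 2 probe sets of Gadd45b (left) and of Cdkn1a (right) set against each other, one symbol per array, both axes intensity on a log scale. For Gadd45b, CF replicates 2 and 1 are highest on both axes and CF replicate 3 lowest on both. For Cdkn1a, CF replicate 2 stands apart at 1530 on the vertical axis, while CF replicate 1 is highest on the horizontal axis.

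Mdm2 and Ccng1, both classical p53 targets, had log2 differences below 0 that were smaller than their SE. Mdm2, on chromosome 10 at 117688875 to 117710758, measured 724.8, 555.5 and 690.7 in controls and 738.9, 492.7 and 711.8 in CF. Replicate 2 was the lowest array in both groups and the CF range held all control values. The log2 difference was -0.03 ± 0.24 (95% interval -0.57 to 0.50, limma adjusted p = 0.99), which covers folds from 0.673 to 1.42. Ccng1, on chromosome 11 at 40748552 to 40755309, measured 730.4, 436.9 and 687.6 in controls and 487.7, 547.7 and 531.5 in CF. The CF arrays lay between the lowest and the second highest control, and the log2 difference was -0.21 ± 0.25 (95% interval -0.78 to 0.36, limma adjusted p = 0.90). It was -0.44 without control replicate 2, the lowest control, and -0.071 without control replicate 1, the highest. The gap in change between the dimmer Cdkn1a probe set and Mdm2 was 1.05 (SD between arrays 0.54 in controls and 1.17 in CF, exact permutation p = 0.3, adjusted 0.4). Within pairs it was 0.77, 1.79 and 0.60, positive in 3 of 3.

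Across the members, the highest of the 6 arrays was CF replicate 2 for 4 probe sets (both of Gadd45b, Btg2 and the dimmer one of Cdkn1a), CF replicate 1 for 3 (Gadd45g, the brighter one of Cdkn1a and Mdm2), control replicate 1 for 2 (Btg1 and Ccng1) and CF replicate 3 for 1 (Gadd45a). CF replicate 3 was the lowest array for 3 probe sets. With 1 array per mouse, this count describes the arrays and does not tell differences between mice from measurement error. The same count over all tested probe sets was not made, so it cannot be read as a trait of the members.

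The genes that share pathways with the members were read from 7 lists of 136 genes, 77 of them tested. Of these, 0 passed the adjusted threshold in either direction in limma, with 8 at an unadjusted p under 0.05 (10.4%, against the 7.38% of all probe sets) and 10 without overlap between the groups (13.0%, as over all). Their median log2 difference was 0.00. Values of the named genes below are log2 differences ± SE, and their limma adjusted p lay between 0.31 and 0.96.

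Of 30 further p53 targets, 17 were tested, 10 higher and 7 lower, with a median of 0.16. The member with the smallest p was Plk2, a polo-like kinase, which measured 1916, 1684 and 2522 in controls and 911.9, 581.9 and 1801 in CF (-1.03 ± 0.37). It thus pointed the other way from Cdkn1a, and CF replicate 3 exceeded 1 control. Xpc, a sensor of DNA damage, differed by 0.86 ± 0.58, the growth factor binding protein Igfbp3 by 0.94 ± 0.60 and the membrane protein gene Perp by 0.26 ± 0.18. The phosphatase gene Dusp1 differed by -0.45 ± 0.38 and Pml by -0.25 ± 0.22. Of 22 regulators and relatives of p53, 7 were tested, 1 higher and 6 lower, with a median of -0.11. Cdkn2a, whose Arf product restrains Mdm2, differed by -0.54 ± 0.30, Ing1 by -0.31 ± 0.26 and the deubiquitinase gene Usp7 by -0.17 ± 0.19, whereas the p53 relative Trp63 differed by 0.14 ± 0.28.

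Of 15 Btg and Tob family genes and CCR4-NOT partners, 9 were tested, 5 higher and 4 lower, with a median of 0.18. Tob1, a Btg relative, measured 4884, 5699 and 5924 in controls and 5142, 9614 and 6869 in CF (0.35 ± 0.22), with CF replicate 2 highest as for Btg2. Prmt1, a methyltransferase that binds Btg proteins, differed by 0.38 ± 0.33 and the tail binding protein gene Pabpc1 by 0.18 ± 0.17. Btg4 differed by -0.55 ± 0.50, Cnot4 by -0.19 ± 0.23 and the scaffold gene Cnot2 by -0.09 ± 0.22. Of 18 Gadd45 partners and stress kinase genes, 10 were tested, 4 higher and 6 lower, with a median of -0.03. Rela, the NF-κB subunit, measured 2542, 2872 and 2857 in controls and 3046, 3516 and 4708 in CF (0.42 ± 0.19), without overlap. Map2k4, a kinase upstream of JNK, measured 659.6, 744.1 and 819.5 in controls and 656.1, 515.8 and 612.5 in CF (-0.32 ± 0.20), also without overlap. The JNK genes Mapk10 and Mapk8 differed by 0.20 ± 0.31 and -0.22 ± 0.25, the p38 gene Mapk14 by 0.12 ± 0.27 and the mitotic cyclin gene Ccnb2 by -0.36 ± 0.34. Map3k4, the kinase that Gadd45 proteins activate, was too dim to test.

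Of 12 other GADD and stress response genes, 10 were tested, 5 higher and 5 lower, with a median of 0.02. Ddit4, an inhibitor of mTOR complex 1, measured 763.1, 616.2 and 1431 in controls and 2559, 4719 and 677.8 in CF (1.20 ± 0.63). Its CF arrays stood in the order of Gadd45b, with replicate 2 highest and replicate 3 among the controls. Gas6, a ligand of receptor kinases, measured 1326, 991.0 and 1283 in controls and 644.3, 570.5 and 813.2 in CF, so that the groups did not overlap (-0.83 ± 0.22, limma adjusted p = 0.31). Gas1 differed by -1.15 ± 0.58, also without overlap, the unfolded protein response factor gene Xbp1 by 0.36 ± 0.21, Ddit3, known as CHOP, by 0.44 ± 0.65 and the haem oxygenase gene Hmox1 by -0.12 ± 0.20.

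Of 14 other CDK inhibitors and G1 partners, 7 were tested, 3 higher and 4 lower, with a median of -0.10. Ccne1, the cyclin that p21 inhibits together with its kinase, measured 406.9, 438.6 and 322.8 in controls and 518.5, 679.3 and 598.3 in CF (0.62 ± 0.23), without overlap. Ccng2, the relative of Ccng1, measured 242.5, 203.1 and 131.0 in controls and 295.8, 321.9 and 333.5 in CF (0.77 ± 0.33), again without overlap. Ccnd3 differed by -0.44 ± 0.18, with all CF values lower, Ccnd1 by -0.76 ± 0.39, Cdk2 by 0.26 ± 0.41 and Cdk4 by -0.11 ± 0.25. Of 25 genes of the Bcl2 family and the caspase pathway, to which Bax belongs, 17 were tested, 10 higher and 7 lower, with a median of 0.10. Bcl2l2, which protects from apoptosis, differed by 0.49 ± 0.21 and the caspase inhibitor gene Xiap by 0.24 ± 0.15, both without overlap, although a further, dim Xiap probe set gave -0.32. Mcl1, another protective member, differed by -0.75 ± 0.32 and Endog, a mitochondrial nuclease, by 0.37 ± 0.24. Casp2 differed by -0.29 ± 0.24 and Bcl2 by -0.19 ± 0.19, with a further Bcl2 probe set at 0.81.

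**Figure D4:**
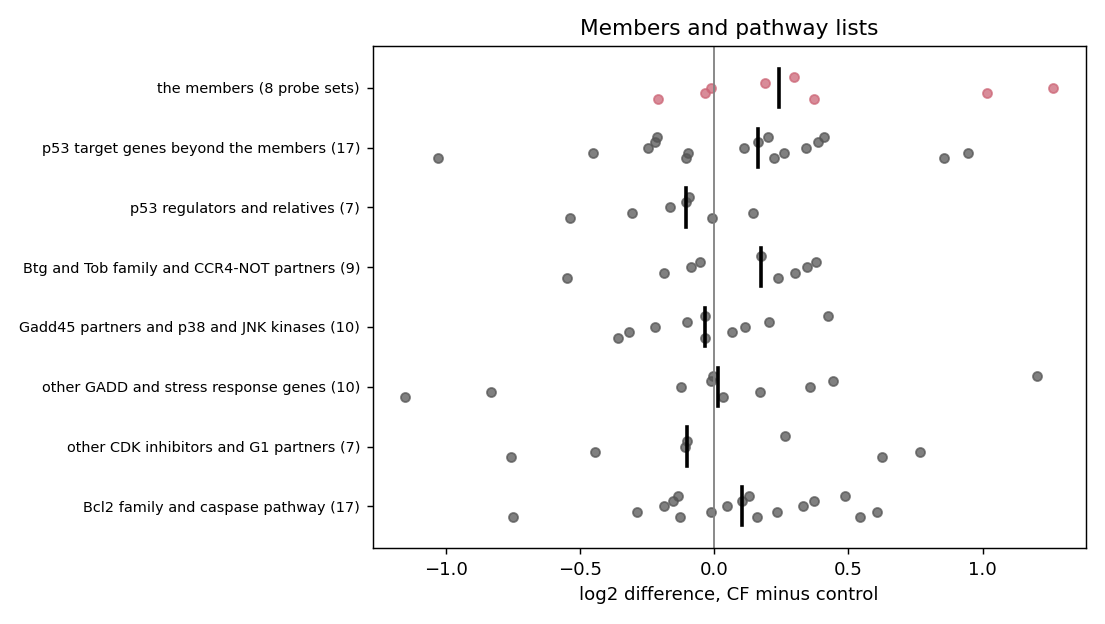
Log2 differences, CF minus control (x axis), of the 8 tested member probe sets (red) and of the tested genes of the 7 pathway lists (grey, 1 probe set per gene, number in brackets). Black bars are medians, which lie between -0.11 and 0.18 for the lists and at 0.24 for the members. The members count both Cdkn1a probe sets (0.19 and 1.02), so their median is not on the same basis as those of the lists.

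Over the 6 arrays, the genes whose log2 values were most like those of Gadd45g were Cyp4a12b (Pearson r = 0.991), Taf8 (r = 0.986) and Mycl (r = 0.982). Mycl, a Myc family gene, measured at most 169.2 in controls and 415.6, 229.1 and 203.6 in CF. Most like Btg2 were Mrpl58 (r = 0.981), the receptor gene Notch1 (r = 0.978) and the metallothionein gene Mt3 (r = 0.973). Notch1 measured 97.7, 387.4 and 80.0 in controls and 140.9, 1126 and 197.0 in CF, so that, as with Btg2, replicate 2 was highest in each group. These correlations run over 6 arrays shared by all probe sets, were picked as the highest over all tested probe sets and are given as a description.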

How the data were processed

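Total RNA, extracted from the pancreas of 6 mice by TRIzol (per the labels), was hybridised to 1-colour oligonucleotide arrays. The authors deposited 1 linear intensity per probe set and array. How these were made is not stated in the labels or the file. The means after trimming 2% at each end were 500.27 to 500.3 on all arrays, so the authors' scaling was kept. Groups came from the genotype and replicate numbers 1 to 3 from the title suffix (none, B, P).

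Intensities were raised to at least 47.6 (pooled 20th percentile) and transformed to log2. After removal of 66 control probe sets, those with at least 3 arrays above 140.2, the pooled 40th percentile, were fitted together in limma 3.58.1 (R 4.3.3; lmFit, eBayes with trend, tested on simulated data). Adjusted p-values are Benjamini-Hochberg values over all 7739 probe sets, with a threshold of 0.05. Folds are taken after the floor, so dim genes appear to change less than they may. Exact permutation tests were two-sided. The gaps between members were not among the planned comparisons, and their within-pair values were added after the data were seen.

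Of the probe sets, 10855 had 1 gene symbol, 396 several and 1237 none, and 10839 were matched by gene identifier to RefSeq names (GRCm38.p6). Those with several symbols are not named. Promoter windows are RefSeq's. The p53 half-site was searched as its published consensus.

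All members were named. Of each pathway list, up to 3 genes per direction of smallest p were named, each by its probe set of highest mean. Likewise the 3 genes most correlated with the member of smallest p, with the brightest Gadd45 (the same probe set) and with the brightest Btg probe set were named. The members and lists were chosen with earlier results of these data known. Around the group means, arrays of the same number correlated at 0.231 to 0.264 and the others at -0.180 to -0.0479, so the numbers were taken to pair the arrays. Centring on the group means makes each array's values with the other group nearly cancel. The negative values are therefore not separate evidence of pairing. The main fit left the pairing out. Alternatives covered scaling, floor, filter, variance model, array weights, the block and leaving out each array.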

Additional observations from a re-analysis of the deposited data

Results flagged for a closer look

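The dimmer Gadd45b probe set stayed outside the comparison because 2 of 6 arrays exceeded the filter level, yet its mean intensity in CF was 397, above the highest control value of 39.0. CF replicates 1 and 2 gave 329.5 and 841.7 and CF replicate 3 gave 21.0, the lowest of the 6 arrays. Without a filter its log2 difference was 2.31 (limma adjusted p = 0.84). On the same floored values leaving out CF replicate 2 gave 1.40, leaving out CF replicate 1 gave 2.07 and leaving out CF replicate 3 gave 3.47.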

How the results depend on the processing

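Under the 16 alternatives, 0 member probe sets and 0 pathway genes passed an adjusted p of 0.05 in limma, with a lowest adjusted p of 0.083 among the members (Gadd45g with array weights). Of 128 values of the 8 tested members, 122 kept their direction. The other 6 came from leaving out single arrays. Btg1 (-0.14 to 0.13 without single arrays) gave 0.13 without control replicate 1 and 0.071 without CF replicate 1, Mdm2 (-0.15 to 0.15) gave 0.042 without control replicate 1, 0.0068 without control replicate 3 and 0.15 without CF replicate 2, and Gadd45b (-0.15 to 0.81) gave -0.15 without CF replicate 2. The members' median was 0.14 to 0.41 without single arrays. Over the whole table, 5 calls became 8 with median scaling, 10 with the floor at the 40th percentile, 3 with no intensity trend, 12 with array weights and 10 with the replicate block. They numbered 0 with no filter (773 at an unadjusted p under 0.05), and 1 to 10 without single arrays (1 without CF replicate 1 or CF replicate 2, 10 without control replicate 2). The cause was not tested. The replicate block changed no call of a member or a pathway gene. Signal limits Gadd45a, which read under the floor on 5 of 6 arrays.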

Other observations

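Zfp36, which encodes a protein that destabilises cytokine mRNAs and was on the early response list, was picked out after its values were seen. It measured 520.1, 157.5 and 238.1 in controls and 1131, 1821 and 448.4 in CF (log2 difference 1.86 ± 0.56, limma adjusted p = 0.47). Its CF arrays stood in the same order as those of both Gadd45b probe sets and of Ddit4, with replicate 2 highest and replicate 3 lowest. How many of all tested probe sets share this order was not counted, and the Gadd45b probe sets map to a single gene. The shared order is therefore a description. Junb, an AP-1 subunit of the same list, measured 719.0, 241.2 and 438.8 in controls and 1008, 932.2 and 694.0 in CF (1.03 ± 0.38, limma adjusted p = 0.60). Jund pointed the other way without overlap, from 4920, 6283 and 5479 in controls to 3643, 2873 and 4463 in CF (-0.62 ± 0.19, limma adjusted p = 0.47), as did Klf4 (-0.998 ± 0.32, limma adjusted p = 0.50).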
